A study of Mus musculus with 2 samples.

Results

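The 86 genes described here are the cytosolic ribosomal protein genes of the mouse, followed across cell classes of the basolateral amygdala in a vehicle and an FGF21 library. They were chosen by name alone, as every column of both tables beginning with Rpl or Rps and a digit, the stalk genes Rplp0, Rplp1 and Rplp2, and Rpsa, without the Rps6k kinases and without 8 columns named as pseudogenes. They make up 86 of 25120 gene columns, of which 52 encode large subunit proteins and 33 small subunit proteins. The remaining one, Rps19bp1, fits the naming rule but encodes a binding partner of Rps19 and not a subunit. Every member had at least 1 UMI (unique molecular identifier, 1 captured molecule) in the used cells of each library.

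The cells came from adult C57BL/6 mice given vehicle or FGF21, a hormone made largely in the liver, at a daily dose of 1 mg/kg over 3 days. Amygdala tissue of 3 mice was combined for each treatment, kept in actinomycin D, a blocker of transcription, while it was dissociated, and sorted for tdTomato fluorescence and viability. The sources used here do not say what drives tdTomato. The study is about cells with KLB, the FGF21 co-receptor, yet Klb itself had 3 UMIs in vehicle and 0 in FGF21 cells, while the tdTomato column had 723 and 1057. Each treatment is 1 pooled library, and the file headers name a different lane for each, so lane, pool, depth and treatment cannot be told apart, no test was possible, and each interval below is a 95% interval of counting error only. The FGF21 library was the deeper, with a median of 6838 UMIs in 1935 used cells against 4232 in 2337 vehicle cells, and 12 barcode numbers occurred in both libraries. Classes are named with "-like" from marker genes. They were clustered with the ribosomal protein genes left out, so that the levels below played no part in forming them.

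A ribosome consists of a small subunit, which reads the messenger RNA, and a large subunit, which joins the amino acids. The proteins are needed in near-equal numbers, and their messenger RNAs commonly begin with a C followed by a run of pyrimidines, the terminal oligopyrimidine (TOP) tract, through which their translation responds to the growth-sensing kinase mTORC1. Some subunit proteins have a paralogue at another locus, such as Rpl22l1 for Rpl22 or Rps27l for Rps27, that can take the same place in the ribosome. Rpl3l is known from striated muscle, and Rpl10l and Rpl39l from the testis.

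The start sites of 66 of the 86 members were found among the RefSeq promoters of GRCm38.p6. A TOP-like tract, searched on the gene's own strand as a C followed by at least 4 bases that are each C or T and beginning within 5 bases of the start, was present in 30 of these 66 genes (45.5%). Among the 26959 other genes with a RefSeq promoter 21.1% had one. With the tract required to begin on the start base itself, 14 of the 66 members (21.2%) and 2.96% of the other genes had one. The windows of 30 bases shown here run from 15 before to 15 from the start on. They belong to some of the genes named in the results below, the Rps27 family, Rpl22l1, Rpl38 and Rps18. Each window shown holds a tract, but none was found at the RefSeq starts of other genes named below, among them Rpl37, Rpl13 and Rpl36al. The search depends on where the start is placed, and for 73.4% of genes a start lay at the annotated beginning of the gene. A tract can therefore be missed, and a gene without a hit is not shown to lack one. A further RefSeq start of Rps27l, not shown, also had none. Capitals mark the tract.
Rps27 (chr3:90213634-90213663, minus strand): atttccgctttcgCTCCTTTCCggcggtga
Rps27rt (chr9:114982725-114982754, minus strand): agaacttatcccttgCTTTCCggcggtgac
Rps27l (chr9:66946071-66946100, plus strand): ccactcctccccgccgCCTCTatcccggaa
Rpl22l1 (chr3:28805493-28805522, plus strand): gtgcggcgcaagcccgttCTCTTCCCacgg
Rpl38 (chr11:114668565-114668594, plus strand): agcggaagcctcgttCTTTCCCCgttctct
Rps18 (chr17:33955651-33955680, minus strand): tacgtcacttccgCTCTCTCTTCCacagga

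Rps27 and Rps27rt shared an unbroken run of 38 bases at their starts, from base 2 to base 39 of Rps27 and from base 1 to base 38 of Rps27rt. Of the 300 windows of 75 bases in the Rps27rt transcript, 271 (90.3%) also occurred in Rps27. Rps27l shared none of its 632 windows with Rps27, and Rpl22l1 none of its 560 with Rpl22. UMIs of Rps27 and Rps27rt can therefore be split in a way that depends on the authors' counting, and both are read as uncertain singly. Near-copies are common among the members at large, since 81 of the 86 shared at least 1 window with another annotated gene and 31 had fewer than 50% of their windows to themselves.

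Cell classes differed widely in how much of their RNA encoded ribosomal proteins. Among classes with at least 20 cells in a library, border macrophage-like cells, which line vessels and meninges, had the highest share in both libraries, with 4.36% of UMIs in 53 vehicle cells (interval 4.25 to 4.46) and 5.36% in 23 FGF21 cells (5.22 to 5.50). Erythroid-like cells had the lowest, with 0.900% (0.841 to 0.963) and 1.43% (1.31 to 1.55). Astrocyte-like cells came next, with 1.15% (1.12 to 1.19) in vehicle and 1.54% (1.52 to 1.57) in FGF21, and overlapped the erythroid-like cells in the FGF21 library. Among smaller classes, 4 vehicle and 6 FGF21 leukocyte-like cells stood above all of these, at 15.7% and 10.9%.

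In the vehicle library the order ran upward from astrocyte-like cells through oligodendrocyte precursor-like cells at 1.65%, oligodendrocyte-like at 1.82%, mural-like at 1.89%, differentiating oligodendrocyte precursor-like at 2.29%, microglia-like at 2.75%, endothelial-like at 2.78% and choroid plexus-like cells at 3.60%. Oligodendrocyte-like and mural-like cells overlapped in their intervals, as did microglia-like and endothelial-like cells. In the FGF21 library oligodendrocyte-like cells, at 1.94% (1.91 to 1.97), lay below oligodendrocyte precursor-like cells, at 1.99% (1.98 to 2.00), the reverse of their vehicle order. Above them lay mural-like cells at 2.44%, differentiating precursor-like cells at 2.62%, 21 neuron-like cells at 3.27% and microglia-like cells at 3.75%.

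**Figure D1:**
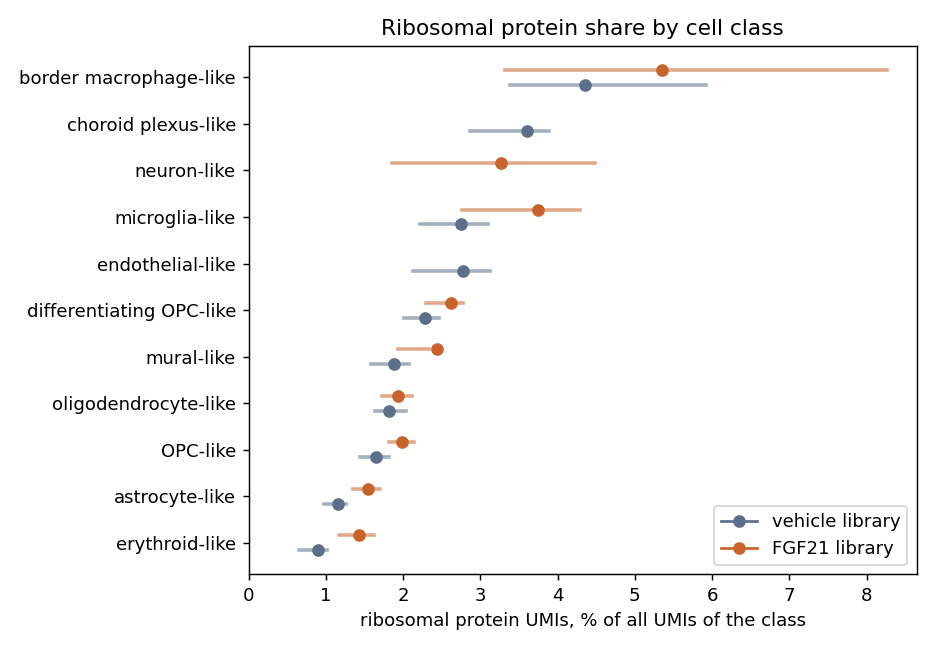
Share of all UMIs that were ribosomal protein UMIs, in percent, for each marker-defined cell class with at least 20 cells in a library. OPC stands for oligodendrocyte precursor, points are the pooled share of the class, and bars span the first to the third quartile over its cells. Border macrophage-like cells lie highest and erythroid-like cells lowest, and in each class shown for both libraries the FGF21 point is to the right of the vehicle point.

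In each of the 6 classes with at least 30 cells in both libraries the share was higher in the FGF21 library. It was 1.36 times as high in microglia-like cells (1.36 to 1.37), the resident immune cells of the brain, from 1414 vehicle and 886 FGF21 cells. Astrocyte-like cells had a ratio of 1.34 (1.30 to 1.38), mural-like cells 1.29 (1.25 to 1.34) and oligodendrocyte precursor-like cells 1.21 (1.19 to 1.22). The smallest ratios were 1.15 (1.12 to 1.18) in differentiating precursor-like and 1.07 (1.03 to 1.10) in oligodendrocyte-like cells. Over single microglia-like cells the median share was 2.61% in vehicle and 3.41% in FGF21, with quartiles of 2.21% and 3.09% against 2.76% and 4.30%. Cells above 5% made up 17 of 1414 vehicle cells (1.20%) and 103 of 886 FGF21 cells (11.6%) of that class. The highest FGF21 cell reached 18.0%.

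Vehicle and FGF21 microglia-like cells lay almost wholly in different clusters, with 98.9% of the vehicle cells in one and 97.3% of the FGF21 cells in the other. Oligodendrocyte precursor-like cells were divided the same way, at 96.5% and 83.2%. Within those clusters the libraries also differed. The 24 FGF21 microglia-like cells in the mostly vehicle cluster had 3.88%, against 2.75% in its vehicle cells. Those 24 cells had a median of 2262 UMIs, against 4174.5 in the vehicle cells of that cluster, so depth differed too. The 16 vehicle cells in the mostly FGF21 cluster had 2.74%. Per 1000000 UMIs of the class (CPM), leukocyte markers, all 11 detected in both libraries, summed to 24.2 in vehicle and 23.9 in FGF21 microglia-like cells. The 8 border macrophage markers summed to 653 and 511 CPM, and those of oligodendrocyte precursors to 818 and 1405 CPM. Oligodendrocyte markers summed to 310 and 750 CPM, astrocyte markers to 1084 and 1683, mural markers to 574 and 178, and erythroid markers to 2421 and 1243. The 10 microglia markers themselves summed to 42562 and 34836 CPM. Their part in the ratio was not tested.

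Depth moved with treatment, so the share was also read among cells of like depth. Of 16 class and depth windows with at least 10 cells in each library, the share was higher in FGF21 cells in all 16, with ratios from 1.08 to 1.58. In microglia-like cells of 4000 to 6000 UMIs, the window with the most cells of each library among those compared, it was 2.78% in 729 vehicle and 3.09% in 296 FGF21 cells, a ratio of 1.11 (1.10 to 1.12). That is the smallest of the 4 microglia-like windows, and the ratio was 1.32 at 2000 to 4000 UMIs and 1.27 at 6000 to 8000. Microglia-like cells of 8000 UMIs or more, nearly all from the FGF21 library, had fewer than 10 vehicle cells to compare. They lie outside these windows but are part of the class ratio given above. Precursor-like cells showed ratios between 1.18 and 1.38 over 4 windows.

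**Figure D2:**
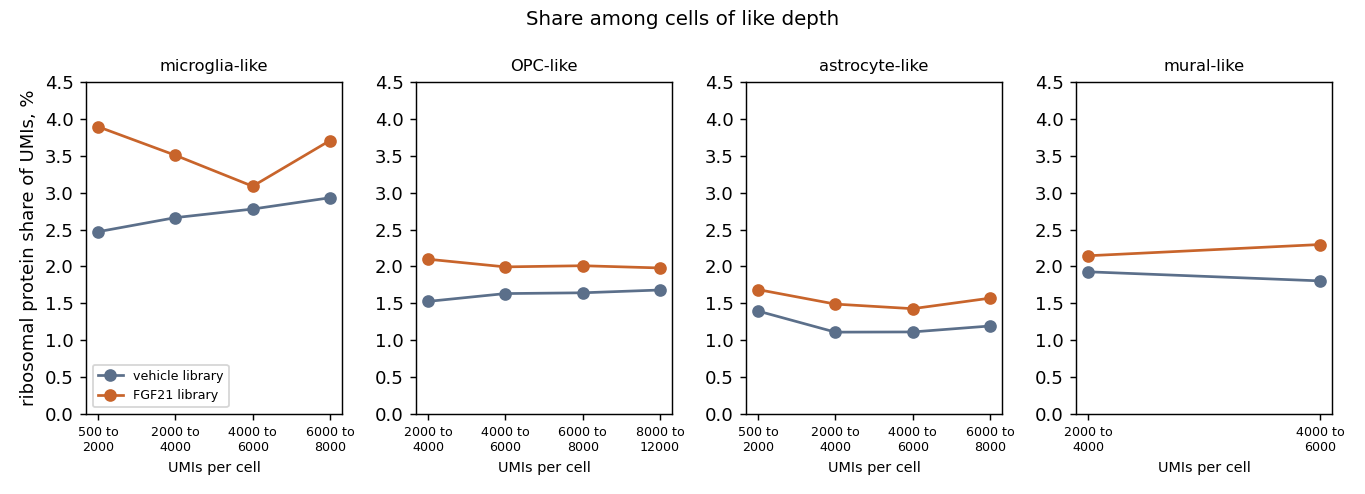
Ribosomal protein share of UMIs in percent against UMIs per cell, for the 4 classes with more than 1 depth window holding at least 10 cells of each library. FGF21 points lie above vehicle points in each window. The ratio of FGF21 to vehicle was smallest in mural-like cells of 2000 to 4000 UMIs and in microglia-like cells of 4000 to 6000 UMIs, at 1.11 in both.

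RNA set free in the suspension enters each class as background. Markers foreign to a class lay at a median of 31.0% of their whole-library level in vehicle cells, and at 39.4% in those given FGF21. Subtracting that share of the whole-library profile left the microglia-like ratio at 1.49 and the precursor-like ratio at 1.13. It turned the oligodendrocyte-like ratio to 0.889, so the direction in that class depends on this step. In mural-like cells the ratio was 1.12 with a stricter cell filter. Over the pairs of class and foreign marker list the free RNA estimate ran from 15.3% to 51.8% in vehicle and from 25.0% to 70.9% in FGF21. For most members it made up more of the UMIs of precursor-like and astrocyte-like than of microglia-like cells. Single ratios and pair shares there are therefore less certain. For Rplp1 it came to 24.5% in microglia-like, 70.4% in precursor-like and 84.4% in astrocyte-like cells.

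The large and the small subunit genes kept nearly the same division in each class, with small subunit UMIs at 47.7% of member UMIs in vehicle and 47.3% in FGF21 microglia-like cells, 42.7% and 43.8% in precursor-like cells, and 46.4% and 46.4% in astrocyte-like cells. The stalk genes Rplp0, Rplp1 and Rplp2, whose proteins recruit the elongation factors to the large subunit, together had ratios of 1.46 in microglia-like, 1.36 in precursor-like, 1.55 in astrocyte-like, 1.36 in mural-like, 1.30 in differentiating precursor-like and 1.09 in oligodendrocyte-like cells. Rplp1 had 872 and 1301 CPM in microglia-like cells, vehicle first here and below, and 342 and 438 CPM in precursor-like cells (ratio 1.28, 1.18 to 1.39). Rplp2 had 330 and 506 CPM in microglia-like cells (1.53, 1.44 to 1.62) and 154 and 248 CPM in precursor-like cells (1.61, 1.43 to 1.81). Rplp0 was nearer to 1 in microglia-like cells, with 241 and 306 CPM (1.27, 1.18 to 1.37), and in differentiating precursor-like cells its 224 and 194 CPM gave 0.865 (0.661 to 1.14). That did not hold in each class. In precursor-like cells Rplp0 had 1.28 (1.13 to 1.47), like Rplp1. In astrocyte-like cells it had 1.71 (1.20 to 2.48), above Rplp1 at 1.53 and Rplp2 at 1.47. The free RNA estimate came to 58.6% of the Rplp0, 84.4% of the Rplp1 and 73.9% of the Rplp2 UMIs of astrocyte-like cells. Rpsa, a small subunit protein that also serves as a laminin receptor, had 111 and 167 CPM in microglia-like cells (ratio within 1.36 to 1.66) and stood at 185 and 144 CPM in differentiating precursor-like cells (0.775, 0.571 to 1.05). The stalk and Rpsa thus had intervals above 1 in microglia-like cells, and Rplp0 and Rpsa did not in the differentiating class.

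Counted gene by gene, members with at least 50 UMIs in a class mostly had ratios above 1. In microglia-like cells 80 of 83 did, against 53.5% of all genes tested there. In precursor-like cells it was 74 of 83 (all genes 49.4%), in astrocyte-like 66 of 78 (51.3%), in mural-like 65 of 75 (42.9%), in differentiating precursor-like 58 of 79 (50.5%) and in oligodendrocyte-like cells 43 of 78 (50.3%). The median member ratio was 1.34, 1.20, 1.27, 1.32, 1.13 and 1.03 in that order, while the median of all genes lay between 0.955 and 1.02. The counting interval lay wholly above 1 for 76 of 83 members in microglia-like cells (all genes 24.6%), for 53 of 83 in precursor-like (13.6%), for 31 of 78 in astrocyte-like (8.94%), for 25 of 75 in mural-like (8.05%), for 23 of 79 in differentiating precursor-like (8.2%) and for 7 of 78 in oligodendrocyte-like cells (7.86%). The oligodendrocyte-like count is near its background. Wholly below 1 lay 1 member in microglia-like (all genes 19.1%), 3 in precursor-like (13.6%), 1 in astrocyte-like (8.18%), 0 in mural-like (9.63%), 2 in differentiating precursor-like (8.04%) and 2 in oligodendrocyte-like cells (9.08%).

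Members at least 1.5-fold higher in FGF21 were fewer. They numbered 15 of 83 (18.1%) in microglia-like cells (all genes 12.1%), 6 of 83 (7.23%) in precursor-like (5.94%), 19 of 78 (24.4%) in astrocyte-like (11.9%), 16 of 75 (21.3%) in mural-like (9.47%), 8 of 79 (10.1%) in differentiating precursor-like (8.14%) and 4 of 78 (5.13%) in oligodendrocyte-like cells (9.98%). The precursor-like and differentiating precursor-like counts are near their backgrounds, and the oligodendrocyte-like count is below its own. With free RNA subtracted, members 1.5-fold apart in either direction went from 16 to 36 in microglia-like, from 16 to 31 in mural-like, from 4 to 21 in oligodendrocyte-like and from 8 to 16 in differentiating precursor-like cells. In precursor-like and astrocyte-like cells the count moved little. The share of all genes 1.5-fold apart after that step is not given here, so the subtracted counts have no background beside them. At least 1.5-fold lower were 1 member in microglia-like (all genes 5.16%), 2 in precursor-like (4.83%) and 1 in astrocyte-like cells (8.14%). None was in mural-like (all genes 16.2%), oligodendrocyte-like (9.06%) or differentiating precursor-like cells (7.35%). The 3 members that never reached 50 UMIs in any compared class were Rpl3l, Rpl10l and Rpl39l.

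**Figure D3:**
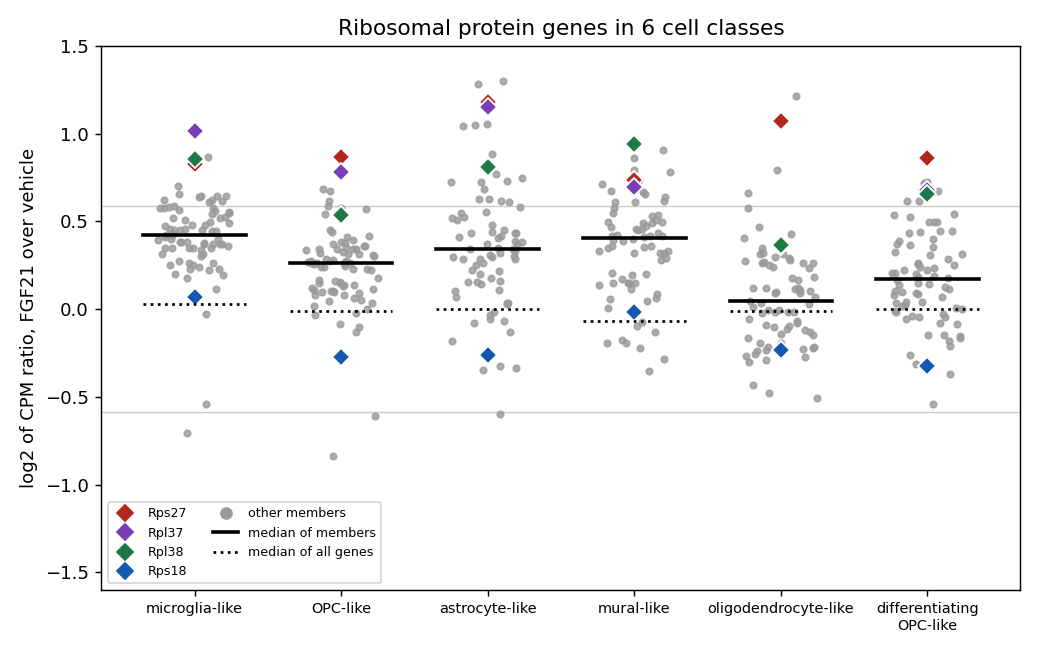
Log2 ratio of CPM, FGF21 over vehicle, of each member with at least 50 UMIs in the class, for the 6 compared classes. Solid lines are the median of the members, dotted lines the median of all genes, and pale lines mark 1.5-fold in either direction. Rps27 lies above the 1.5-fold line in all 6 classes, and Rps18 lies below the median of the members in all 6.

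Of 75 members measured in all 6 classes, 26 had a ratio above 1 in each, against 11.5% of the 2262 genes measured in all 6. For 4 members, Rps27, Rps28 and Rps29 among them, the interval lay wholly above 1 in each class (all genes 1.02%). At least 1.5-fold higher in 3 or more classes were 7 members (all genes 3.8%), namely Rps27, Rpl37, Rpl38, Rpl27, Rplp2, Rpl37a and Rpl31. Beside Rpl27 stands a pseudogene-named column, Rpl27-ps3. It had 228 vehicle and 226 FGF21 UMIs in microglia-like cells, against 431 and 644 of Rpl27. In differentiating precursor-like cells it had 32 and 28, against 55 and 120. The place of Rpl27 among the 7 can therefore depend on how shared reads were counted. All 6 comparisons rest on the same 2 libraries and their shared free RNA, so recurrence across classes is not repetition of the experiment.

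Rps27, a small subunit protein with a zinc finger (chromosome 3, 90212522 to 90213651, GRCm38), was the only member at least 1.5-fold higher in all 6 classes. It had 280 and 498 CPM in microglia-like cells (1.78, 1.67 to 1.89), 123 and 225 CPM in precursor-like cells (1.83, 1.61 to 2.08), and 95.8 and 217 CPM in astrocyte-like cells (2.27, 1.62 to 3.26). In mural-like, oligodendrocyte-like and differentiating precursor-like cells the ratios were 1.67, 2.10 and 1.82. The free RNA estimate came to 26.9% of the Rps27 UMIs of microglia-like cells, 60.6% of those of precursor-like and 64.9% of those of astrocyte-like cells. Its near-copy Rps27rt (chromosome 9, 114982366 to 114982739) stood nearer to 1, with 172 and 204 CPM in microglia-like cells (1.19, 1.09 to 1.30) and 54.8 and 53.7 CPM in precursor-like cells (0.978, 0.793 to 1.21). Rps27 and Rps27rt added together, so that the division of reads between these genes has no part, had ratios of 1.55 (1.48 to 1.63), 1.57 (1.41 to 1.75) and 1.95 (1.46 to 2.64) in microglia-like, precursor-like and astrocyte-like cells. In the other 3 classes the sum lay between 1.49 and 1.64. The annotated genes Gm17241, Gm19243 and Gm19246 also share windows with both, so the sum can still depend on how those reads were counted.

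Rpl37, a large subunit protein (chromosome 15, 5116645 to 5119140), had the highest ratio of any member in microglia-like cells, with 330 and 665 CPM (2.02, 1.91 to 2.13). It stood at 221 and 379 CPM in precursor-like cells (1.72, 1.56 to 1.89), at 138 and 305 CPM in astrocyte-like cells (2.22, 1.67 to 2.99), and at 252 and 324 CPM in oligodendrocyte-like cells (1.29, 0.987 to 1.69). Rpl38 (chromosome 11, 114668524 to 114672331), a large subunit protein known for its part in axial patterning of the mouse embryo, had 215 and 390 CPM in microglia-like cells (1.81, 1.69 to 1.94). In precursor-like cells it had 160 and 232 CPM (1.45, 1.29 to 1.63), and in mural-like cells, where it led the members with at least 50 UMIs, 163 and 313 CPM (1.92, 1.32 to 2.76). Rpl8 was also among the 5 highest in microglia-like cells at 1.82, and Rplp2, Rpl39 and Rps29 were among those in precursor-like cells at 1.61, 1.59 and 1.53. In astrocyte-like cells Rpl24 and Rpl27 headed the list at 2.47 (1.63 to 3.87) and 2.43 (1.25 to 5.28), on only 26 and 10 vehicle UMIs.

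A few members stood at or below 1 where the rest stood above. Rps18, a small subunit protein (chromosome 17, 33951999 to 33956001), had 181 and 190 CPM in microglia-like cells (1.05, 0.963 to 1.15), and 132 and 109 CPM in precursor-like cells (0.826, 0.719 to 0.951). It was among the 5 lowest members with at least 50 UMIs in 4 of the 6 classes. Only 24.3% of its 75-base windows are its own, and 7 other annotated genes share some of them. Rpl36al, the autosomal paralogue of the X-linked Rpl36a, had 11.9 and 8.15 CPM in microglia-like cells (0.687, 0.461 to 1.01) and 12.3 and 6.88 CPM in precursor-like cells (0.560, 0.334 to 0.945). Its parent Rpl36a had 176 and 234 CPM in microglia-like cells (1.33, 1.22 to 1.44). The annotated gene Gm49383 overlaps Rpl36al on the same strand. Rps19bp1, no subunit, was the lowest in microglia-like cells among members with at least 50 UMIs, at 14.8 and 9.06 CPM (0.612, 0.423 to 0.878). Rpl13a in precursor-like cells, at 22.5 and 14.7 CPM, had a ratio of 0.655 (0.456 to 0.945). It rested on 55 and 75 UMIs, and a pseudogene-named column, Rpl13a-ps1, stands beside it. Measured as a share of member UMIs instead of all UMIs, 2 of 83 members were 1.5-fold apart in microglia-like and 3 of 83 in precursor-like cells. The share of all genes under that measure is not given here, so these counts have no background beside them.

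Among the 8 members with the most UMIs were Rps29, Rpl13, Rplp1, Rpl23, Rps9, Rps24 and Rpl6. Set per kilobase of transcript over all used cells, Rps29, a small subunit zinc-binding protein with one of the shortest transcripts, had 2665 CPM per kb in vehicle and 3123 in FGF21. Rplp1 was the next highest of all members, with 1363 and 1644 CPM per kb, and Rpl6, with a longer transcript, had 409 and 441. At the other end Rpl3l had 0.457 and 0.412 CPM per kb. By class, Rps29 had 1333 and 1734 CPM in microglia-like cells (1.30, 1.26 to 1.34), 540 and 828 CPM in precursor-like cells (1.53, 1.44 to 1.63) and 408 and 848 CPM in astrocyte-like cells (2.08, 1.76 to 2.46). In both libraries Rps29 was higher in microglia-like than in precursor-like cells.

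Some members varied over cell classes more than the others. The 8 with the widest range of their share of member UMIs over the 6 classes, taking the smaller range of the libraries, were Rpl22l1, Rpl13, Rps27l, Rpl27, Rps18, Rps27rt, Rps2 and Rpl10. They were ranked by that range, so their spread is a description. Rpl13 (chromosome 8, 123102350 to 123105244), a large subunit protein, stood out in precursor-like cells in both libraries, with 1088 CPM in vehicle and 1087 CPM in FGF21, a ratio of 0.999 (0.954 to 1.05). In the other 5 compared classes it had between 369 and 832 CPM, among them 598 and 832 CPM in microglia-like cells and 563 and 560 CPM in the differentiating precursor-like cells. Rpl13 made up 6.60% of the member UMIs of vehicle precursor-like cells and 5.46% of those of FGF21, against 2.46% and 2.13% in the differentiating class. Only 20.4% of its 75-base windows are its own, and 8 other annotated genes share some of them.

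As a share of member UMIs, Rps18, Rps2 and Rpl27 were highest in differentiating precursor-like cells in both libraries. Rps2, a small subunit protein, had 192 and 203 CPM there, against 115 and 143 CPM in microglia-like and 72.5 and 77.1 CPM in oligodendrocyte-like cells. Rps18 had 227 and 181 CPM there against 72.5 and 61.7 CPM in oligodendrocyte-like cells. Rpl27, a large subunit protein, had 126 and 178 CPM there, against 74.1 and 117 CPM in microglia-like cells. Rpl10, an X-linked large subunit protein joined to it late in assembly, was highest in microglia-like cells as a share of member UMIs, at 0.782% and 0.854%, and lowest in astrocyte-like cells, at 0.405% and 0.296%. The free RNA estimate came to 153% of the Rpl10 UMIs of astrocyte-like cells. It exceeds the count itself, so it is too high for this gene, and the level of Rpl10 above background there is unknown. Rpl10 summed with its pseudogene-named column Rpl10-ps3 had a ratio of 1.37 (1.29 to 1.45) in microglia-like cells, against 1.49 (1.38 to 1.60) alone.

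**Figure D4:**
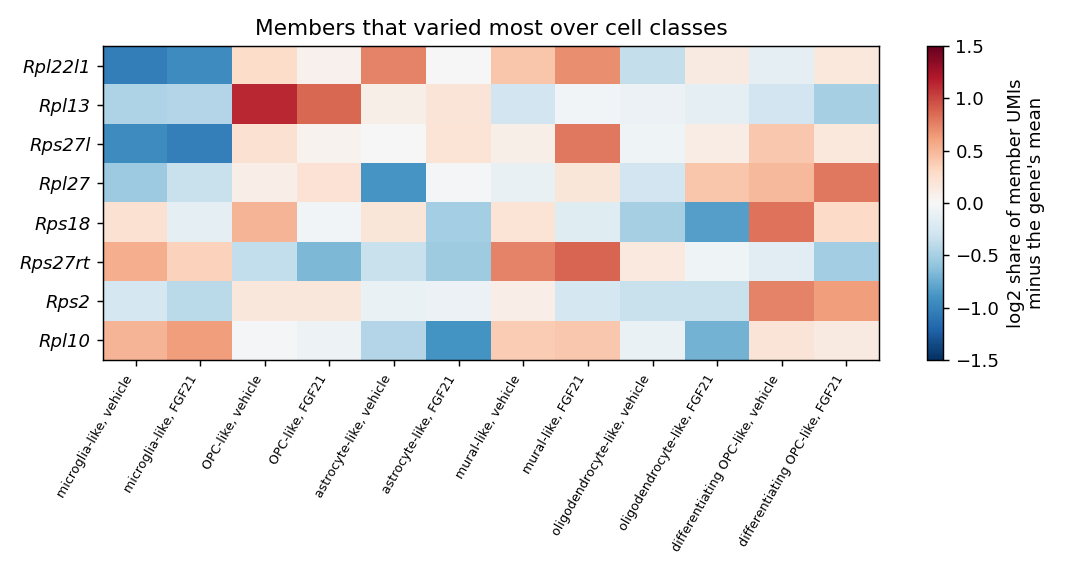
Log2 share of member UMIs of the 8 members that varied most over classes, less the gene's mean over the 12 class and library combinations. Red is above and blue below the gene's mean, and rows are ordered by range. Rpl22l1 and Rps27l are blue in both microglia-like columns, and Rpl13 is reddest in both precursor-like (OPC-like) columns.

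Among the 6 compared classes Rpl22l1 and Rps27l were both lowest, relative to their parent genes, in microglia-like cells. Rpl22l1 (chromosome 3, 28805436 to 28807424) gave 14.7% of the UMIs of the pair with Rpl22 in vehicle microglia-like cells (12.8 to 16.8) and 16.9% in FGF21 (15.1 to 18.9). Precursor-like cells had 26.5% (22.4 to 30.8) and 23.2% (20.8 to 25.8), and mural-like cells 29.6% and 31.3%. The highest value was 39.5% (28.8 to 51.0) in 28 choroid plexus-like cells of the vehicle library, the epithelium that secretes cerebrospinal fluid. Microglia-like cells thus lay below precursor-like and choroid plexus-like cells by more than counting error. The libraries overlapped in the microglia-like and in the precursor-like class.

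Rps27l, known as a target of p53 (chromosome 9, 66946086 to 66949516), was likewise low in microglia-like and high in choroid plexus-like cells, while the classes between them came in another order. Its share of the pair with Rps27 was 11.6% (10.1 to 13.1) in vehicle and 8.71% (7.72 to 9.77) in FGF21 microglia-like cells, 28.7% (24.4 to 33.3) and 19.1% (17.1 to 21.2) in precursor-like cells, and 40.2% (30.6 to 50.4) in vehicle choroid plexus-like cells. Border macrophage-like cells were as low as microglia-like cells within counting error, at 9.68% (4.52 to 17.6) in the vehicle library. The lower FGF21 share in precursor-like cells went with more Rps27, since Rps27l itself had 49.5 and 53.1 CPM there (1.07, 0.862 to 1.34). Rps27rt gave 38.0% of its pair with Rps27 in vehicle and 29.1% in FGF21 microglia-like cells, and 30.8% and 19.3% in precursor-like cells.

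Rpl7l1, whose protein acts in ribosome assembly, gave 19.0% (17.3 to 20.7) of the pair with Rpl7 in vehicle and 14.4% (13.0 to 15.8) in FGF21 microglia-like cells, and 22.2% and 21.5% in precursor-like cells. Rpl36al gave 6.30% and 3.36% of its pair in microglia-like cells and 10.3% and 5.22% in precursor-like cells. The tissue-restricted paralogues had few UMIs. Over all used cells Rpl3l had 5 UMIs in vehicle and 6 in FGF21, or 0.230% and 0.187% of the pair with Rpl3. Rpl10l had 11 and 7 UMIs, and Rpl39l 33 and 9 (0.852% and 0.141% of the pair with Rpl39).

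**Figure D5:**
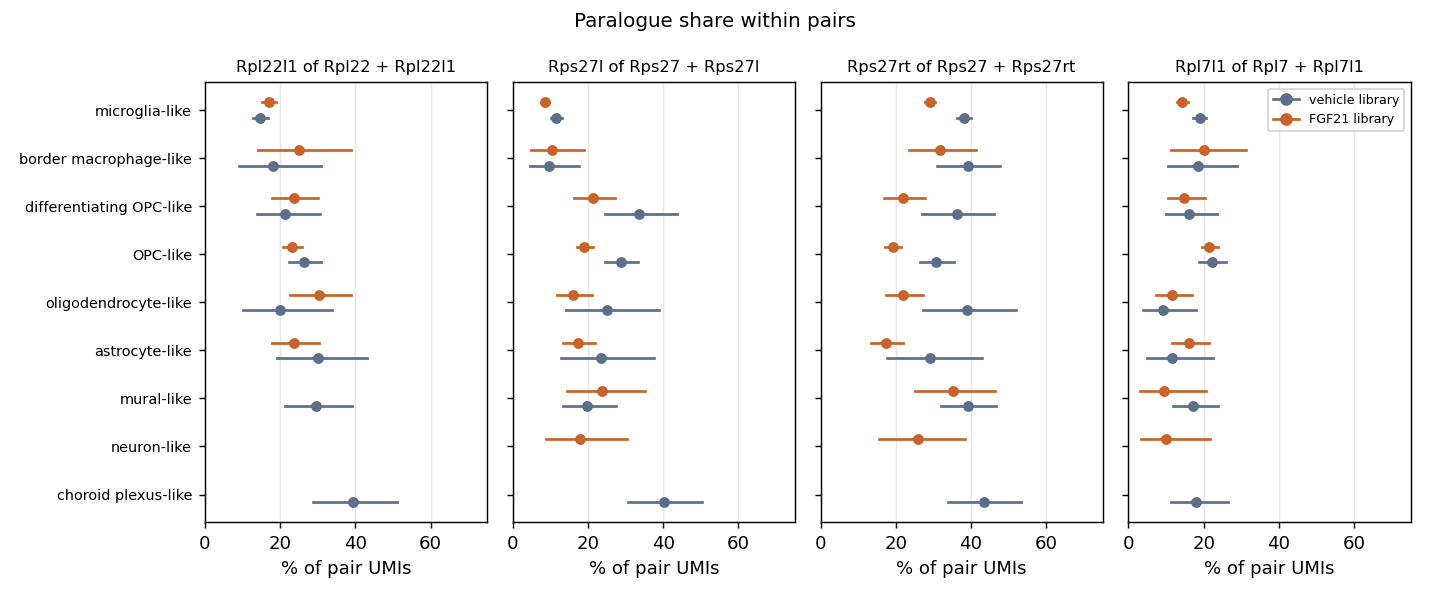
UMIs of the paralogue as a percentage of the UMIs of the pair, by cell class, for pairs with at least 50 UMIs. Bars are 95% Clopper-Pearson intervals of counting error. Rpl22l1 and Rps27l reach 39.5% and 40.2% in choroid plexus-like cells of the vehicle library, against 14.7% and 11.6% in microglia-like cells.

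Genes that work beside the ribosomal proteins were read in the same way, against 53.5% of all genes above 1 in microglia-like and 49.4% in precursor-like cells, and 12.1% and 5.94% at least 1.5-fold higher. Of 20 other TOP and translation genes, 18 had a column, and 17 of 17 measured in microglia-like cells had a ratio above 1 (1 at least 1.5-fold higher, none lower), with a sum ratio of 1.30 (1.28 to 1.32). Eef1a1, the elongation factor that brings aminoacyl-tRNA, had 1531 and 2240 CPM in that class (1.46), Tpt1 987 and 1293 CPM (1.31, 1.27 to 1.36), and Fau, which encodes a small subunit protein fused to a ubiquitin-like one, 512 and 619 CPM (1.21, 1.15 to 1.27). In precursor-like cells 12 of 17 lay above 1, with a sum ratio of 1.12 (1.09 to 1.15). The 26 ribosome biogenesis genes had sum ratios of 1.09 in microglia-like and 1.08 in precursor-like cells, with 17 and 15 of 26 above 1, 4 and 1 at least 1.5-fold higher and 0 and 1 lower. In oligodendrocyte-like cells their sum ratio was 0.832 (0.737 to 0.941). Nucleolin (Ncl), the most abundant of them, had ratios of 1.22 and 1.13, while Nop56, a box C/D snoRNP protein, had 0.884 (0.793 to 0.986) in microglia-like cells.

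The 20 mTORC1 and TOP regulators had sum ratios of 1.06 (1.03 to 1.08) in microglia-like and 1.00 (0.969 to 1.03) in precursor-like cells, with 9 of 20 and 10 of 19 measured above 1. In mural-like cells their sum ratio was 0.865 (0.775 to 0.964), and in oligodendrocyte-like cells it was 0.881 (0.793 to 0.979), with 4 of 12 measured at least 1.5-fold lower there (all genes 9.06%). The one at least 1.5-fold higher in microglia-like cells was Ddit4, a stress-induced inhibitor of mTORC1, with 186 and 286 CPM in microglia-like cells (1.54, 1.43 to 1.67). Mitochondrial ribosomal proteins, 77 genes of the other ribosome of the cell, had sum ratios of 1.12 (1.10 to 1.15) in microglia-like cells, with 58 of 77 above 1, and 1.01 (0.978 to 1.03) in precursor-like cells, with 36 of 77. Nuclear-encoded respiratory chain genes had 1.29 (1.27 to 1.30) and 1.11 (1.09 to 1.13), with 67 and 58 of 75 measured above 1. In microglia-like cells all 5 of these lists thus had a sum ratio above 1.

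Members with a TOP-like tract found at a RefSeq start had nearly the same median ratio as those where none was found. The group without can hold genes whose tract lies away from the given start, so the medians cannot separate TOP genes from others. In microglia-like cells it was 1.33 for 30 members with a tract and 1.33 for 33 without, and in precursor-like cells 1.20 and 1.18. Transcript length was weakly and inversely related to the log2 ratio across members (Pearson r between -0.14 and -0.27 over the 6 classes, 75 to 82 genes each, in the same libraries). In microglia-like cells genes other than the members also ran from a median log2 ratio of 0.10 at up to 500 bases of transcript to -0.05 above 5000 bases, while the members up to 500 bases had a median of 0.45. The part of length in the members' ratios was not tested.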

How the data were processed

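Single cells of 2 pooled libraries, 1 per treatment, were measured with BD Rhapsody whole transcriptome sequencing. The deposited tables hold whole-number counts, 1 row a cell and 1 column a gene, corrected for UMI errors (RSEC). Per the file headers they come from version 1.9.1 of the BD WTA Rhapsody pipeline, with a tdTomato sequence added. The build was GRCm38, per the submitters' processing notes. How reads shared by near-identical genes were counted is not given in the sources used here.

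Of 2925 vehicle and 2455 FGF21 barcodes (11130580 and 14585503 UMIs), cells with at least 500 UMIs, 300 genes and at most 25% mitochondrial UMIs were kept. Scrublet in scanpy 1.11.5 marked 17 and 16 doublets (0.767%), which were removed, leaving 2337 and 1935 cells. Both libraries were clustered together without member or pseudogene-named columns (2000 variable genes, 30 components, 15 neighbours, Leiden resolution 1). A cluster took the name of the marker list with the highest mean z-score, by at least 0.5 over the next, with at least 3 markers in 10% of its cells. A cluster of 13 cells led by mitotic genes stayed unnamed, a rule set after it was seen.

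UMIs were summed per class and library and given as CPM. Ratios are FGF21 over vehicle with exact conditional-binomial 95% intervals, and shares have Clopper-Pearson intervals. Both cover counting error only. Log2 ratios used a pseudocount of 0.5. On counts simulated from a pooled microglia-like profile, with the counting error that the intervals assume, they held the set ratio for 95.7% of 11364 genes. The simulated counts have no added spread between cells, pools or lanes. They check the computation only and not the error of the experiment. Free RNA was estimated as the median, over 21 pairs of class and foreign marker list, of the marker level relative to the whole library. Gene positions and 75-base windows come from GENCODE vM21 transcripts, and start sequences from RefSeq.

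The members, lists and rules were chosen with earlier results of these data known. Named were the 5 highest and 5 lowest ratios in each compared class, drawn on selectively here, the 8 members with most UMIs, the 8 with the widest range over classes, paralogue pairs, stalk genes and Rpsa, and the 3 most abundant genes of other lists. The mural-like, oligodendrocyte-like and differentiating class extremes are mostly given only as counts. Values of some members are not reported here.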

Additional observations from a re-analysis of the deposited data

Results flagged for a closer look

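For 4 members the counting intervals lay wholly above 1 in one class and wholly below 1 in another, and the difference between the classes was not tested. Over all genes, 7.86% to 24.6% lay wholly above 1 in a single class and 8.04% to 19.1% wholly below. The share of all genes with opposite intervals is not given here, so the 4 cannot be read as particular to the members. Rpl7a, a large subunit protein, had ratios of 1.17 in microglia-like and 2.32 in oligodendrocyte-like cells, against 0.660 in astrocyte-like and 0.687 in differentiating precursor-like cells. It had 17 vehicle UMIs in the oligodendrocyte-like class, and 64 other annotated genes share some of its sequence. Rpl21 had 1.20 in microglia-like and 1.36 in differentiating precursor-like cells, against 0.740 in oligodendrocyte-like cells. Rpl23a had 1.21 in microglia-like and 0.716 in oligodendrocyte-like cells. Rps23 had 1.20 in microglia-like and 1.46 in astrocyte-like cells, against 0.805 in differentiating precursor-like cells.

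The 8 pseudogene-named columns, outside the member rule, held 5333 UMIs in vehicle and 6268 in FGF21 cells. Their sum ratio was 1.13 in microglia-like and 0.987 in oligodendrocyte precursor-like cells.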

How the results depend on the processing

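No paired analysis was possible because each treatment has a single library. The ratio of the ribosomal protein share stayed above 1 in 45 of 46 class and setting combinations, and the cause of the movements below was not tested. With free RNA subtracted it was 0.889 in oligodendrocyte-like cells, where it turned below 1, 1.49 in microglia-like, 1.13 in precursor-like and 1.26 in astrocyte-like cells. With each cell weighted equally it was 1.33 in microglia-like, 1.30 in astrocyte-like and 1.22 in mural-like cells, and with cells thinned to 2000 UMIs 1.32, 1.39 and 1.23. Leaving mitochondrial UMIs out of the denominator gave 1.37 in microglia-like cells, and the stricter filter (1000 UMIs, 500 genes, 10% mitochondrial) gave 1.12 in mural-like cells. In cells of 4000 to 6000 UMIs, a setting chosen after seeing the data, it was 1.11 in microglia-like and 1.28 in astrocyte-like cells.

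The count of members 1.5-fold apart in either direction, 16 in microglia-like, 8 in precursor-like, 20 in astrocyte-like, 16 in mural-like, 4 in oligodendrocyte-like and 8 in differentiating precursor-like cells, became 36, 10, 19, 31, 21 and 16 with free RNA subtracted. As a share of member UMIs it became 2, 3, 13, 3, 4 and 2. The share of all genes under these other settings is not given here. A minimum of 200 UMIs gave 4 in mural-like and 2 in oligodendrocyte-like cells, no minimum gave 7 in oligodendrocyte-like and 13 in differentiating precursor-like cells, and the stricter filter gave 10 in mural-like cells.

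With free RNA subtracted the Rpl22l1 share of its pair was 12.5% in vehicle and 14.7% in FGF21 microglia-like cells, and the Rps27l share 9.70% and 6.81% in microglia-like and 40.3% and 26.8% in precursor-like cells. Of 360 alternative values of single members 43 left the main interval, and no member 1.5-fold apart changed direction. Genes with few UMIs in the smaller classes are limited by depth.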
